A study of Mus musculus with 12 samples.

Results

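The genes described are the SR, hnRNP and snRNP splicing factors of B16 mouse melanoma cells, together with the SF3A and SF3B subunits of the U2 snRNP. They are the 49 gene symbols of the count table that begin with Srsf, Hnrnp, Snrp, Sf3a or Sf3b followed by the family's number or letter, pseudogene symbols left out, of 23336 symbols in all. The set holds 11 SR protein genes, 18 hnRNP genes, 12 snRNP genes, 3 SF3A genes and 5 SF3B genes. The Snrp symbols cover the Sm proteins and some specific proteins of the U1 and U2 snRNPs, and 46 of the 49 genes had enough counts to be tested. Symbols do not follow function fully, so close relatives under other names (Hnrpdl, Snrnp70, Tra2b, the Lsm genes) were counted in lists of their own.

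B16 is an established melanoma line. All cells had received Cas9 and a guide RNA on plasmids by transient transfection and had been subcloned, with Adar sgRNA 1 in the Adar-null cells and the non-targeting control sgRNA 5 in the control cells. Both genotypes were given 1000 U per mL of interferon-beta (IFNb) or its vehicle, PBS with 0.1% BSA, for 36 h, and each of the 4 groups had 3 libraries of directional, ribosomal RNA-depleted RNA. The interferon-gamma arm of the study was not analysed here. A genotype is thus 1 guide and its subcloned cells, and a difference between genotypes is also one between subcloned populations. No label ties the 3 libraries of a group to separate cultures, and p-values therefore reflect library-to-library spread that may be purely technical.

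Splicing removes introns in a series of steps. The U1 snRNP pairs with the 5′ splice site, the U2 snRNP with the branch point, and the tri-snRNP then joins to form the catalytic spliceosome. Sm proteins form a ring around the small RNA of each of these particles (LSm proteins around U6), and the SF3A and SF3B complexes hold the U2 snRNP on the branch point. SR proteins bind exons through RNA recognition motifs and recruit the spliceosome through domains rich in arginine and serine, while hnRNP proteins coat nascent transcripts and often repress splice sites. Adar encodes the deaminase that edits adenosines in double-stranded RNA, and IFNb is a type I interferon that signals through JAK and STAT proteins.

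Library totals ran from 5375649 to 7153480 counts, which allowed 11561 genes to be tested. The ribosomal RNA precursor Rn45s took 21.1% to 22.9% of the vehicle libraries. In IFNb-treated libraries it took 24.9% to 25.3% in control cells and 25.8% to 28.5% in Adar-null cells. It was thus highest where the members below were lowest. Without it in the fit, 27 members were called lower and 4 higher with IFNb in Adar-null cells, as many as with it. TMM, the scaling used, trims genes of extreme level, so this refit could change little. The part of Rn45s in the result was not tested, and counts with library size alone are given further below. All 7 melanocyte markers were counted in every group. Their summed level in CPM (counts scaled by TMM library size) was 15300 to 16500 in the vehicle groups, 13400 to 13700 in IFNb-treated control cells and 10400 to 11100 in IFNb-treated Adar-null cells, against at most 4.28 CPM for the markers of leukocytes, fibroblasts, endothelium or epithelium. Adar itself is called null by the labels, yet its counts did not fall to 0, with 56.3 to 65.6 CPM in vehicle-treated Adar-null cells and 70.3 to 74.3 CPM in vehicle-treated control cells. Under IFNb it was not lower in Adar-null cells, at 383.5 to 422 CPM against 377 to 392 CPM in control cells. That count covers the whole gene and does not test the deletion.

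Most of these splicing factors fell with IFNb in Adar-null cells, 27 of 46, and the snRNP genes had the lowest median log2 fold change of the 5 families (-0.82). Summed over all 49 genes, they took 0.757% to 0.79% of the counts of a library in vehicle-treated control cells, 0.712% to 0.728% in IFNb-treated control cells, 0.79% to 0.817% in vehicle-treated Adar-null cells and 0.573% to 0.606% in IFNb-treated Adar-null cells. The 3 IFNb-treated Adar-null libraries lay below all 9 others. Without Rn45s in the total, the shares were 0.971% to 1.01%, 0.952% to 0.97%, 1.03% to 1.05% and 0.799% to 0.817% in the same order. These are shares of RNA in bulk samples, so fewer cells with a transcript and less transcript per cell cannot be told apart.

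In the test across all genes (edgeR's quasi-likelihood test; calls are at 0.05 after Benjamini-Hochberg adjustment), IFNb lowered 27 and raised 4 of the 46 tested members in Adar-null cells, or 67.4% called, while 72.3% of all tested genes were called there (35.7% lower and 36.6% higher). The share called was therefore not above that of all genes. Of the members, 58.7% were called lower. Their median log2 fold change was -0.33, beside 0.01 for all genes. By at least 2-fold 8 members fell, a count not taken over all genes. In control cells IFNb raised 11 and lowered 11, or 47.8% called, against 53% of all genes, with a median of -0.05 (-0.005 for all genes); 24 members had groups that did not overlap, as did 57.6% of all genes. That even split depends on the scaling, with 7 higher and 19 lower when library size alone was used and 9 and 14 with upper-quartile scaling. Of all 11561 genes in control cells, library size alone called 2469 higher and 3796 lower, and upper-quartile scaling 2826 and 3360. The difference between the responses of the genotypes (Adar-null minus control) was called lower for 28 members and higher for 3, and 59.3% of all genes were called in it (30.7% lower and 28.6% higher), with a median of -0.32 for the members and 0.01 for all genes.

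By the pair of calls, 9 members fell in both genotypes, 16 fell in Adar-null cells and were not called in control cells, and 4 rose in both. Srsf2 and Hnrnpl rose in control cells and fell in Adar-null cells. Hnrnpc and Hnrnpul2 fell in control cells and were not called in Adar-null cells, 5 rose in control cells and were not called in Adar-null cells, and 8 were called in neither genotype. These pairs were not counted over all genes, of which 53% were called in control cells and 72.3% in Adar-null cells. The counts therefore show nothing particular to the members. A call in one genotype and its absence in the other is not a test of the difference, which is given for the genes below.

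**Figure D1:**
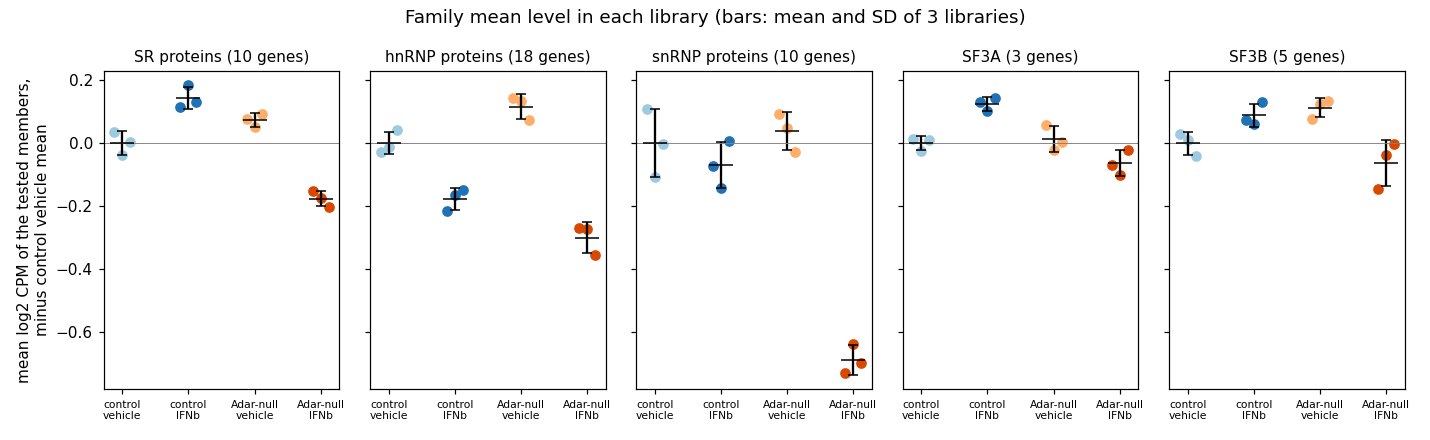
Mean log2 CPM over the tested members of each family in each library, minus the mean of the control vehicle libraries, by group (points: libraries; bars: mean and SD of 3 libraries). The snRNP genes lie at -0.73 to -0.64 in IFNb-treated Adar-null cells, the SR genes above 0 in IFNb-treated control cells (0.11 to 0.18) and below 0 in IFNb-treated Adar-null cells (-0.20 to -0.15), and the hnRNP genes below 0 with IFNb in both genotypes.

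The genes of the Sm ring that could be tested, Snrpb, Snrpd1, Snrpd2, Snrpd3, Snrpe and Snrpg, all fell with IFNb in Adar-null cells. Of the 10 tested snRNP genes 8 were called lower by IFNb in Adar-null cells and none higher, with a median log2 fold change of -0.82. Among these, 5 fell by at least 2-fold, a count not taken over all genes. In control cells 1 of the 10 was higher and 1 lower, with a median of -0.11. The response was lower in Adar-null than in control cells for 7 of the 10, and none was higher. Among all genes, 35.7% were called lower and 36.6% higher in Adar-null cells, and 26.5% each way in control cells. For the difference of the responses, 30.7% of all genes were called lower and 28.6% higher. No snRNP gene was higher with IFNb in Adar-null cells at an unadjusted p under 0.05, by the DESeq2 Wald test or by limma-voom. The DESeq2 test and limma-voom called 6 and 8 lower. With library size alone 9 were called lower in Adar-null cells and 3 in control cells, with upper-quartile scaling 8 and 2, and leaving out 1 library gave 7 to 9 lower in Adar-null cells. Proliferation genes, a list of 15, moved in the same libraries: their summed level was 378 to 418 CPM in IFNb-treated Adar-null cells and 2979 to 3892 CPM in the other groups, and 15 of 15 fell in Adar-null cells (median -3.24). Their part in the result was not tested.

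Snrpd1 was counted at 14.8, 11.4 and 10.8 CPM in vehicle-treated control cells, 10.9, 13.9 and 12.1 CPM in IFNb-treated control cells, 13.4, 9.66 and 10.5 CPM in vehicle-treated Adar-null cells and 4.92, 3.91 and 5.695 CPM in IFNb-treated Adar-null cells. This gene encodes a core Sm protein that forms a pair with the product of Snrpd2. All 3 IFNb-treated Adar-null libraries lay below all 9 others, which overlapped one another. Its response in Adar-null cells was -1.20 ± 0.20 (log2 fold change ± SE; edgeR quasi-likelihood adjusted p = 2.41e-08), against 0.005 ± 0.16 in control cells (adjusted p = 0.984), and the responses differed by -1.20 ± 0.25 (adjusted p = 1.45e-05). These levels rest on 88 to 236 counts per group of 3 libraries.

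Snrpd2 was counted at 8.96, 8.91 and 9.39 CPM in vehicle-treated control cells, 8.19, 5.86 and 9.92 CPM in IFNb-treated control cells, 10.3, 9.94 and 9.09 CPM in vehicle-treated Adar-null cells and 3.598, 4.66 and 3.01 CPM in IFNb-treated Adar-null cells. Here too the IFNb-treated Adar-null libraries were the 3 lowest, with the control library with IFNb of replicate 2 next. The response was -1.37 ± 0.22 in Adar-null cells (edgeR adjusted p = 7.01e-09) and -0.19 ± 0.18 in control cells (adjusted p = 0.384), a difference of -1.17 ± 0.29 (adjusted p = 0.000182). Snrpd3, which encodes the partner of the SmB protein, is more strongly counted. Snrpd3 was counted at 44.6, 44.4 and 38.5 CPM in vehicle-treated control cells, 43.6, 34.8 and 35.6 CPM in IFNb-treated control cells, 46.6, 46.8 and 37.8 CPM in vehicle-treated Adar-null cells and 19.5, 21.2 and 24.7 CPM in IFNb-treated Adar-null cells. Its 3 IFNb-treated Adar-null libraries again stood below the other 9, and the response was -1.004 ± 0.10 in Adar-null cells (edgeR adjusted p = 5.96e-16) and -0.17 ± 0.09 in control cells (adjusted p = 0.105). The difference of the responses was -0.83 ± 0.14 (adjusted p = 1.01e-07). In control cells a fall of Snrpd3 passed the test without the IFNb library of replicate 1 (adjusted p = 0.0166), without the vehicle library of replicate 3 (adjusted p = 0.0401), or with library size alone (adjusted p = 0.0185).

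Snrpe encodes the small SmE protein. Snrpe was counted at 13.4, 10.9 and 11.02 CPM in vehicle-treated control cells, 11.2, 13.2 and 13.6 CPM in IFNb-treated control cells, 18.8, 14.4 and 16.4 CPM in vehicle-treated Adar-null cells and 7.197, 9.17 and 6.96 CPM in IFNb-treated Adar-null cells. The Adar-null vehicle libraries were the highest and the Adar-null IFNb libraries the lowest, with no overlap with the control groups on either side. Its response in Adar-null cells was -1.07 ± 0.16 (edgeR adjusted p = 1.43e-09) and started from that higher vehicle level, while control cells gave 0.12 ± 0.15 (adjusted p = 0.537). Under IFNb its difference from control cells was -0.70 ± 0.17 (adjusted p = 7.73e-05), which is a smaller gap than the difference of the responses, -1.18 ± 0.22 (adjusted p = 1.4e-06). Snrpg, which encodes SmG, was the least counted Sm gene tested, with 24 to 64 counts per group. Snrpg was counted at 4.22, 2.804 and 2.89 CPM in vehicle-treated control cells, 4.27, 2.43 and 3.1 CPM in IFNb-treated control cells, 3.08, 3.31 and 3.92 CPM in vehicle-treated Adar-null cells and 0.947, 1.95 and 0.949 CPM in IFNb-treated Adar-null cells. The IFNb-treated Adar-null libraries were the lowest here as well, and the response there was -1.37 ± 0.38 (edgeR adjusted p = 0.000399), with -0.04 ± 0.30 in control cells (adjusted p = 0.924) and a difference of -1.33 ± 0.48 (adjusted p = 0.0111).

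Snrpb encodes SmB, the most strongly counted snRNP gene. Snrpb was counted at 104, 103 and 116 CPM in vehicle-treated control cells, 92.8, 95.96 and 96.4 CPM in IFNb-treated control cells, 105, 103 and 97.9 CPM in vehicle-treated Adar-null cells and 64.01, 66.1 and 68.2 CPM in IFNb-treated Adar-null cells. The IFNb-treated Adar-null libraries were the lowest, and the IFNb-treated control libraries lay below both vehicle groups. IFNb lowered it in both genotypes, with -0.18 ± 0.06 in control cells (edgeR adjusted p = 0.00724) and -0.63 ± 0.06 in Adar-null cells (adjusted p = 6.62e-17), with a difference of -0.45 ± 0.08 (adjusted p = 1.94e-06). The control call ended without the vehicle library of replicate 3 (adjusted p = 0.107). Snrpf, the last gene of the ring, and Snrpn, a close relative of Snrpb that is best known from neurons, were not tested: Snrpf had 6 to 9 counts and Snrpn 4 to 8 counts per group. Of the 37-base windows in the exons of Snrpf, 91.3% also occur in other annotated genes, so its low count cannot be read as low expression.

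The promoters of Snrpe and Snrpg are shown because these genes fell together and because each holds 1 of the 4 motifs searched for. The motifs were the core of the interferon-stimulated response element (GAAANNGAA), an E2F site (TTTNNCGC), an E-box (CACGTG) and a cyclic AMP response element (TGACGTCA), each sought on both strands, and none of the strings contains another. The windows run from 250 bases before to 50 bases after the RefSeq start (GRCm38.p6), 5′ to 3′ along the gene's strand, with matches in capitals: the response element core in Snrpe (chr1:133610231-133610530, minus strand) and the cyclic AMP response element in Snrpg (chr6:86371290-86371589, plus strand).
Snrpe: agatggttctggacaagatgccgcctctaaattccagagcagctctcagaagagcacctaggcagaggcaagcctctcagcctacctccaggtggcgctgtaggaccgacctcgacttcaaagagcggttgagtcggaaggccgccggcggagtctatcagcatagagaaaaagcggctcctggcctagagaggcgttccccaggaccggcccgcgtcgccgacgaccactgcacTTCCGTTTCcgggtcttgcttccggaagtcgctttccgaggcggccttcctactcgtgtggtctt
Snrpg: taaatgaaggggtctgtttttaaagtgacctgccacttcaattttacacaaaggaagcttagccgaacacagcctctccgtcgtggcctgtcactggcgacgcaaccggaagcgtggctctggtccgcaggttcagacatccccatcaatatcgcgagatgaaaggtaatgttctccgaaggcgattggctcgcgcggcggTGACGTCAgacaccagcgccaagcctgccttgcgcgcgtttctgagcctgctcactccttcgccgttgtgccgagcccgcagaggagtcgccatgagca
Of 61 such windows of 44 member genes, 2 held the response element core (3.28%; Hnrnph2 and Snrpe), beside 8.56% of all 32851 windows, and 2 held the cyclic AMP response element (3.28%; Snrpa and Snrpg), beside 1.79%. An E-box was found in 7 member windows (11.5%, beside 7.15%) and an E2F site in 8 (13.1%, beside 5.17%). A match is a description of letters in these windows.

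In Adar-null cells the log2 fold changes with IFNb of the genes for specific proteins of the U1 and U2 snRNPs were smaller than those of the Sm genes above; in control cells those of Snrpb2, Snrpc and Snrpa1 were the larger. Snrpa, which encodes the U1 protein that binds a stem-loop of U1 RNA, had 17.7 ± 3.43 CPM (SD, n = 3) in vehicle-treated Adar-null cells and 13.98 ± 2.11 CPM with IFNb (-0.34 ± 0.14, edgeR adjusted p = 0.0202). That call was lost with the DESeq2 Wald test (adjusted p = 0.0782), without the IFNb library of replicate 1 (adjusted p = 0.126) and without vehicle-treated Adar-null replicate 1 (adjusted p = 0.0621) or 2 (adjusted p = 0.231). Snrpb2, a U2 protein gene, went from 15.0 ± 0.238 to 11.7 ± 2.01 CPM (-0.38 ± 0.15, adjusted p = 0.0161), a call that was lost with the DESeq2 Wald test (adjusted p = 0.0594) and without the IFNb library of replicate 2 (adjusted p = 0.145). In control cells Snrpb2 gave -0.31 ± 0.15 (adjusted p = 0.0609), which passed with library size alone (adjusted p = 0.0197), upper-quartile scaling (adjusted p = 0.0399) and without the vehicle library of replicate 2 (adjusted p = 0.0128). Snrpa1, the gene of the U2 protein that pairs with the Snrpb2 product, had estimates of opposite sign in the genotypes. It went from 29.6 ± 3.14 to 35.1 ± 1.39 CPM in control cells (0.24 ± 0.10, adjusted p = 0.0278) and from 27.6 ± 1.95 to 23.6 ± 0.921 CPM in Adar-null cells (-0.22 ± 0.11, adjusted p = 0.0526), where a fall passed in 8 alternatives (adjusted p from 0.00655 to 0.0499). Its responses differed by -0.46 ± 0.14 (adjusted p = 0.00348), while the control rise was lost with the DESeq2 Wald test (adjusted p = 0.079), library size alone (adjusted p = 0.139), upper-quartile scaling (adjusted p = 0.054), and without the IFNb (adjusted p = 0.0993) or vehicle (adjusted p = 0.199) library of replicate 3. Snrpc, a U1 protein gene, had 4.7 to 5.89 CPM on average in the 4 groups and no call in any comparison.

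**Figure D2:**
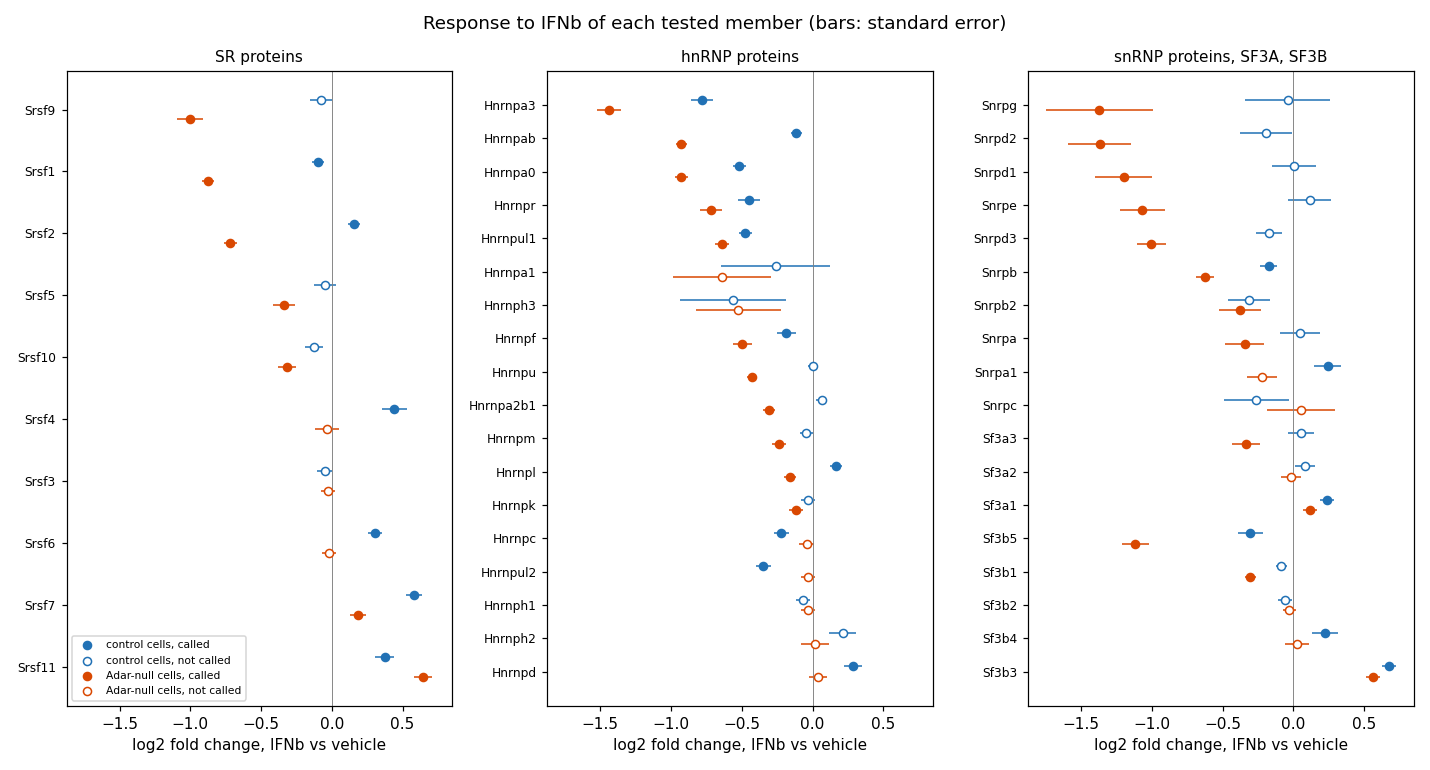
Log2 fold change with IFNb against vehicle in control cells (blue) and Adar-null cells (orange) for the 46 tested members, by family (points: estimates; bars: standard errors; filled points: adjusted p under 0.05). In Adar-null cells Snrpg and Snrpd2 lie at -1.37, Hnrnpa3 at -1.44 and Sf3b5 at -1.12, while Srsf11 lies at 0.64 and Sf3b3 at 0.56.

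SR protein genes split into genes that fell and genes that rose. In Adar-null cells IFNb lowered 5 of the 10 tested (Srsf1, Srsf2, Srsf5, Srsf9 and Srsf10) and raised 2 (Srsf7 and Srsf11). In control cells it raised 5 and lowered 1, which became 4 and 3 with library size alone. The responses differed for 8 of the 10, with 7 lower and 1 higher in Adar-null cells. Of all genes, 35.7% were called lower and 36.6% higher in Adar-null cells, and 26.5% each way in control cells. For the difference of the responses, 30.7% of all genes were called lower and 28.6% higher. The median log2 fold change was 0.05 in control cells and -0.17 in Adar-null cells, and Srsf12 was not tested, with 0 to 2 counts per group.

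Srsf1 encodes the founding SR protein, which promotes exon inclusion, and is a known oncogene. Srsf1 was counted at 504, 482 and 451 CPM in vehicle-treated control cells, 464, 448 and 432 CPM in IFNb-treated control cells, 499, 489 and 484 CPM in vehicle-treated Adar-null cells and 286, 261 and 258 CPM in IFNb-treated Adar-null cells. The IFNb-treated Adar-null libraries formed a separate low group, and the 9 others overlapped. The gene lies on GRCm38 chromosome 11 between 88047373 and 88053755, plus strand, and its response was -0.87 ± 0.04 in Adar-null cells (edgeR adjusted p = 7.43e-38). In control cells the change was -0.10 ± 0.04 (adjusted p = 0.045), a call that was lost in 13 alternatives, among them the DESeq2 Wald test (adjusted p = 0.085), RLE size factors (adjusted p = 0.0504) and TMM without Rn45s (adjusted p = 0.0619). Leaving out 1 library ended it for 8 of the 12 libraries, with adjusted p from 0.0502 to 0.316. The responses differed by -0.78 ± 0.06 (adjusted p = 1.59e-22).

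Srsf2 encodes a nuclear speckle protein that binds exonic enhancers. Srsf2 was counted at 332, 301 and 315 CPM in vehicle-treated control cells, 354, 358 and 345 CPM in IFNb-treated control cells, 328, 332 and 325 CPM in vehicle-treated Adar-null cells and 208, 201 and 190.0 CPM in IFNb-treated Adar-null cells. Control libraries with IFNb lay above all 9 others and IFNb-treated Adar-null libraries below all 9 others. The gene lies on GRCm38 chromosome 11 between 116849901 and 116853094, minus strand, and its response was 0.16 ± 0.04 in control cells (edgeR adjusted p = 0.00148) and -0.72 ± 0.05 in Adar-null cells (adjusted p = 3.96e-29), so that the responses differed by -0.88 ± 0.06 (adjusted p = 1.15e-24). The rise in control cells was 0.08 and not called with library size alone (adjusted p = 0.125). Of its 37-base windows 33.3% are shared with overlapping or similar genes.

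Srsf9 encodes a short SR protein. Srsf9 was counted at 60.1, 53.1 and 57.1 CPM in vehicle-treated control cells, 46.5, 56.1 and 57.8 CPM in IFNb-treated control cells, 54.6, 56.7 and 60.4 CPM in vehicle-treated Adar-null cells and 24.6, 30.8 and 29.6 CPM in IFNb-treated Adar-null cells. Only the 3 IFNb-treated Adar-null libraries stood apart, and all of them were lower than any other library. The response was -1.002 ± 0.09 in Adar-null cells (edgeR adjusted p = 5.57e-20) and -0.08 ± 0.08 in control cells (adjusted p = 0.411), with a difference of -0.92 ± 0.12 (adjusted p = 1.3e-11). Srsf10, which encodes a regulator that represses splicing when dephosphorylated, went from 91.7 ± 6.64 to 73.6 ± 7.78 CPM in Adar-null cells (-0.32 ± 0.06, adjusted p = 7.33e-06), and the difference from the control response did not pass (-0.19 ± 0.09, adjusted p = 0.0564). It did pass in 5 alternatives, one of them TMM without Rn45s (adjusted p = 0.0482) and the others without 1 library, at adjusted p from 0.00651 to 0.0486. Srsf5 went from 60.3 ± 6.39 to 47.5 ± 2.02 CPM (-0.34 ± 0.08, adjusted p = 4.5e-05). Its difference from the control response (-0.29 ± 0.11, adjusted p = 0.0165) was lost with the DESeq2 Wald test (adjusted p = 0.0591), without vehicle-treated Adar-null replicate 1 (adjusted p = 0.0964) and without vehicle-treated control replicate 2 (adjusted p = 0.0512).

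Srsf7 and Srsf11 went the other way. Srsf7 encodes an SR protein with a zinc knuckle. Srsf7 was counted at 82.4, 83.8 and 90.3 CPM in vehicle-treated control cells, 123, 138 and 122 CPM in IFNb-treated control cells, 99.02, 98.6 and 96.4 CPM in vehicle-treated Adar-null cells and 113, 112 and 109 CPM in IFNb-treated Adar-null cells. Levels were highest in IFNb-treated control cells, and no group overlapped another. IFNb raised it, with 0.58 ± 0.06 in control cells (edgeR adjusted p = 1.53e-16) and 0.18 ± 0.06 in Adar-null cells (adjusted p = 0.00266; 0.15 with library size alone), and the responses differed by -0.40 ± 0.08 (adjusted p = 8.86e-06). Srsf11 encodes an arginine- and serine-rich protein related to the SR family. Srsf11 was counted at 75.9, 66.3 and 83.8 CPM in vehicle-treated control cells, 89.9, 99.97 and 101 CPM in IFNb-treated control cells, 70.2, 73.7 and 78.1 CPM in vehicle-treated Adar-null cells and 119.9, 111 and 117 CPM in IFNb-treated Adar-null cells. The vehicle groups overlapped, and the IFNb-treated Adar-null libraries lay above all others. It lies on GRCm38 chromosome 3 between 158010473 and 158036639, minus strand, and rose in both genotypes, with 0.37 ± 0.06 in control cells (edgeR adjusted p = 3.3e-07) and 0.64 ± 0.06 in Adar-null cells (adjusted p = 4.03e-17). The difference of 0.27 ± 0.09 (adjusted p = 0.00638) ended without vehicle-treated control replicate 3 (adjusted p = 0.0748).

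Srsf4 and Srsf6, which encode the SR proteins with long arginine- and serine-rich tails, rose in control cells. Srsf6 was counted at 212, 205 and 194 CPM in vehicle-treated control cells, 234, 267 and 253 CPM in IFNb-treated control cells, 195, 203 and 214 CPM in vehicle-treated Adar-null cells and 209.8, 192 and 202 CPM in IFNb-treated Adar-null cells. Control libraries with IFNb lay above the 9 others, which overlapped. The response of Srsf6 was 0.30 ± 0.05 in control cells (edgeR adjusted p = 7.11e-08) and -0.02 ± 0.05 in Adar-null cells (adjusted p = 0.763), a difference of -0.32 ± 0.07 (adjusted p = 3.97e-05). Srsf4 gave 0.44 ± 0.09 (adjusted p = 5.74e-06) and -0.03 ± 0.08 (adjusted p = 0.756), a difference of -0.47 ± 0.12 (adjusted p = 0.000437), but 66.1% of its 37-base windows also occur in 1 other annotated gene. Srsf3, which encodes the smallest SR protein, was not called in any of the 5 comparisons, with group means from 155 ± 6.28 to 168 ± 5.15 CPM (SD, n = 3). It was called lower with library size alone in control cells (adjusted p = 0.0367) and in Adar-null cells (adjusted p = 0.0338), and higher in Adar-null than in control cells under IFNb with upper-quartile scaling (adjusted p = 0.0166).

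The promoters of Srsf1 and Srsf10 are shown because these genes fell in Adar-null cells and both hold the E2F string (capitals, either strand), once in Srsf1 (chr11:88047123-88047422, plus strand) and in 4 places in Srsf10 (chr4:135855821-135856120, plus strand), in RefSeq windows of GRCm38.p6 as above.
Srsf1: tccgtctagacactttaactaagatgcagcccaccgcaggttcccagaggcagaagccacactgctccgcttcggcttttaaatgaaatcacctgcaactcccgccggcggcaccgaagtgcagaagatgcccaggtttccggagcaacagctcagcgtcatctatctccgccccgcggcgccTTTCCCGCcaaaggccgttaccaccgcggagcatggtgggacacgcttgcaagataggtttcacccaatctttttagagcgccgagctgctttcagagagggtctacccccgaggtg
Srsf10: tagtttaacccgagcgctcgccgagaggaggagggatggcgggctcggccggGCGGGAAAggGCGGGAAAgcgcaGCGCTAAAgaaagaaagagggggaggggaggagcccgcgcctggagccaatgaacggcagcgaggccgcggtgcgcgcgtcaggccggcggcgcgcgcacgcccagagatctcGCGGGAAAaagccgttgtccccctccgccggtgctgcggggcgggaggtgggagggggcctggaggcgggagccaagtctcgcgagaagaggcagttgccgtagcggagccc
The other member windows with this string belong to Hnrnpc, Hnrnpr, Hnrnpul1, Snrpa, Snrpn and Srsf3. Of these 8 genes, Srsf1, Srsf10, Hnrnpr, Hnrnpul1 and Snrpa were called lower by IFNb in Adar-null cells, Hnrnpc and Srsf3 were not called there and Snrpn was not tested. Beside this, 58.7% of the 46 tested members and 35.7% of all tested genes were called lower there. A link between the string and the fall was not tested. Binding was not measured in this study.

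**Figure D3:**
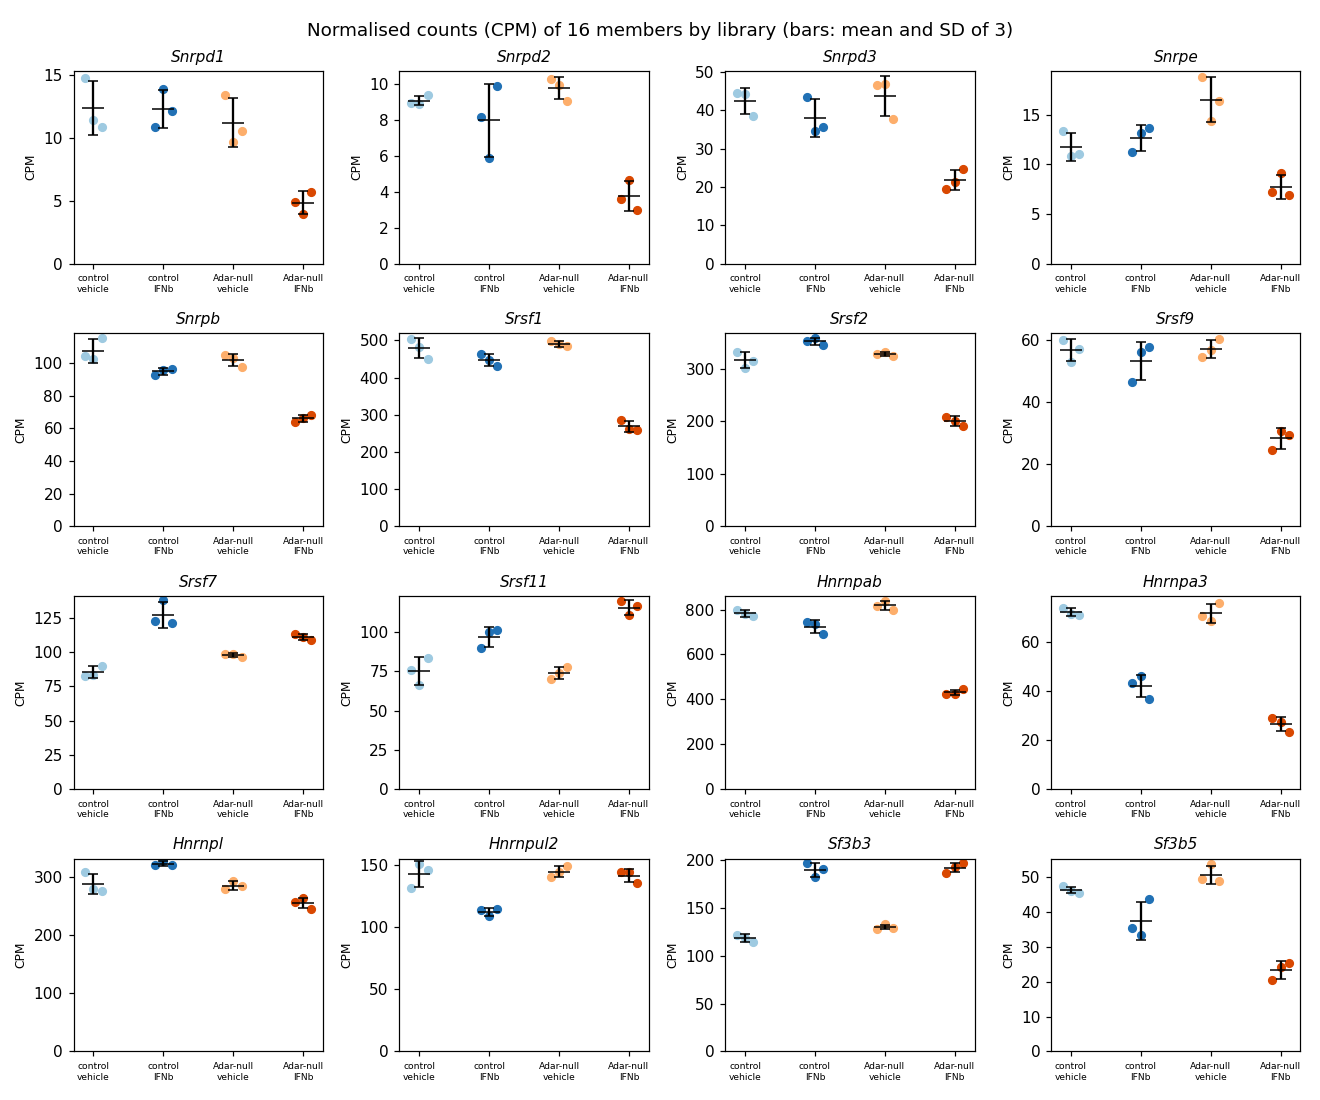
Normalised counts (CPM, linear axes from 0) of 16 members in the 12 libraries by group (points: libraries; bars: mean and SD of 3 libraries). Snrpd1 to Snrpb, Srsf1, Srsf2, Srsf9, Hnrnpab and Sf3b5 are lowest in IFNb-treated Adar-null cells, while Hnrnpul2 is lowest in IFNb-treated control cells.

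All 18 hnRNP genes were tested, and in both genotypes more of them fell than rose. IFNb lowered 8 and raised 2 in control cells (median -0.15) and lowered 11 and raised none in Adar-null cells (median -0.37). Of all genes, 26.5% were called lower in control cells and 35.7% in Adar-null cells, with 26.5% and 36.6% called higher. With library size alone the counts were 10 lower and 1 higher in control cells and 14 lower in Adar-null cells. The response differed for 13 genes, 11 lower and 2 higher in Adar-null cells, beside 30.7% of all genes lower and 28.6% higher.

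Hnrnpab encodes a glycine-rich protein that binds single-stranded RNA and DNA, and its level per kilobase of merged exons was the highest of the members. Hnrnpab was counted at 799, 781 and 770.0 CPM in vehicle-treated control cells, 744, 736 and 689 CPM in IFNb-treated control cells, 818, 839.5 and 800.1 CPM in vehicle-treated Adar-null cells and 422, 425 and 444 CPM in IFNb-treated Adar-null cells. The IFNb-treated Adar-null libraries lay below all 9 others, and the IFNb-treated control libraries lay below both vehicle groups. It changed by -0.93 ± 0.04 in Adar-null cells (edgeR adjusted p = 8.45e-45) and by -0.12 ± 0.04 in control cells (adjusted p = 0.00682), the latter not called without IFNb-treated control replicate 3 (adjusted p = 0.105). The difference was -0.81 ± 0.05 (adjusted p = 2.43e-27).

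Hnrnpa3 and Hnrnpa0, which encode proteins of the A group with RNA recognition motifs and a glycine-rich tail, fell in both genotypes. Hnrnpa3 was counted at 73.98, 71.6 and 70.97 CPM in vehicle-treated control cells, 43.1, 45.9 and 36.9 CPM in IFNb-treated control cells, 70.4, 68.6 and 76.1 CPM in vehicle-treated Adar-null cells and 28.8, 27.5 and 23.1 CPM in IFNb-treated Adar-null cells. The vehicle groups overlapped, both IFNb groups lay below them, and the IFNb-treated Adar-null libraries were lowest. The log2 fold changes of Hnrnpa3 were -0.78 ± 0.08 in control cells (edgeR adjusted p = 1.26e-16) and -1.44 ± 0.09 in Adar-null cells (adjusted p = 2.68e-32), and they differed by -0.66 ± 0.12 (adjusted p = 4.01e-07); 28.3% of its windows are shared with 48 other annotated genes, 42 of them pseudogenes. Hnrnpa0 was counted at 353, 354 and 349 CPM in vehicle-treated control cells, 250.3, 237 and 251 CPM in IFNb-treated control cells, 369.9, 381 and 355 CPM in vehicle-treated Adar-null cells and 188, 192 and 201 CPM in IFNb-treated Adar-null cells. Both IFNb groups lay below both vehicle groups, and the Adar-null libraries were again the lowest. Hnrnpa0, on GRCm38 chromosome 13 between 58125879 and 58128556, minus strand, with no shared window, gave -0.52 ± 0.04 (edgeR adjusted p = 1.26e-19) and -0.93 ± 0.05 (adjusted p = 1.28e-38), a difference of -0.41 ± 0.06 (adjusted p = 1.21e-08).

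Hnrnpr and Hnrnpul1 also fell in both genotypes. Hnrnpr went from 57.5 ± 3.14 to 42.2 ± 1.49 CPM in control cells (-0.45 ± 0.08, edgeR adjusted p = 3.12e-07) and from 60.99 ± 1.45 to 37.02 ± 1.44 CPM in Adar-null cells (-0.72 ± 0.08, adjusted p = 9.28e-15). The difference, -0.27 ± 0.11 (adjusted p = 0.0289), was lost with the DESeq2 Wald test (adjusted p = 0.0772), upper-quartile scaling (adjusted p = 0.0522), and without vehicle-treated Adar-null replicate 1 (adjusted p = 0.0563) or the control library of replicate 3 with IFNb (adjusted p = 0.0673) or vehicle (adjusted p = 0.0729). Hnrnpul1, a relative of Hnrnpu, went from 258 ± 8.59 to 186 ± 0.762 CPM (-0.48 ± 0.05, adjusted p = 5.18e-16) and from 284 ± 6.14 to 182 ± 9.2 CPM (-0.64 ± 0.05, adjusted p = 2.15e-24). Its difference, -0.16 ± 0.07 (adjusted p = 0.0285), was lost with upper-quartile scaling (adjusted p = 0.0698) and without the Adar-null IFNb (adjusted p = 0.0777), Adar-null vehicle (adjusted p = 0.0642) or control vehicle (adjusted p = 0.0757) library of replicate 1. Hnrnpf, which encodes a protein that binds runs of guanines, changed by -0.19 ± 0.07 (adjusted p = 0.0146) and -0.50 ± 0.07 (adjusted p = 7e-11) and differed by -0.31 ± 0.10 (adjusted p = 0.00343), but 64.9% of its windows are shared with other genes. Its control fall was lost without the IFNb (adjusted p = 0.0692) or vehicle (adjusted p = 0.0759) library of replicate 2.

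Hnrnpu, Hnrnpa2b1 and Hnrnpm fell in Adar-null cells and were not called in control cells. Hnrnpu encodes a scaffold protein of nuclear RNA and chromatin. Hnrnpu was counted at 776, 772 and 759 CPM in vehicle-treated control cells, 782, 752 and 777 CPM in IFNb-treated control cells, 831, 823 and 846 CPM in vehicle-treated Adar-null cells and 626, 612 and 623 CPM in IFNb-treated Adar-null cells. The control groups overlapped, the Adar-null vehicle libraries lay above them and the Adar-null IFNb libraries below. Its response was -0.43 ± 0.04 in Adar-null cells (edgeR adjusted p = 5.77e-20) and 0.002 ± 0.04 in control cells (adjusted p = 0.972), a difference of -0.43 ± 0.05 (adjusted p = 3.02e-12). Hnrnpa2b1, whose protein also takes part in RNA transport, gave -0.31 ± 0.04 (adjusted p = 2.83e-10) and 0.06 ± 0.04 (adjusted p = 0.189), a difference of -0.37 ± 0.06 (adjusted p = 4.83e-08). Without IFNb-treated control replicate 1 the rise in control cells passed at adjusted p = 0.0416. Hnrnpm gave -0.24 ± 0.05 (adjusted p = 5.58e-06) and -0.04 ± 0.05 (adjusted p = 0.457; 0.0316 with library size alone), a difference of -0.19 ± 0.07 (adjusted p = 0.00977).

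Hnrnpl, which encodes a protein that binds CA repeats, was called in opposite directions. Hnrnpl was counted at 309, 280.2 and 276 CPM in vehicle-treated control cells, 321, 328 and 321 CPM in IFNb-treated control cells, 279, 294 and 285 CPM in vehicle-treated Adar-null cells and 258, 264 and 246 CPM in IFNb-treated Adar-null cells. The IFNb-treated control libraries were the 3 highest of the 12 and the IFNb-treated Adar-null libraries the 3 lowest. The response was 0.17 ± 0.05 in control cells (edgeR adjusted p = 0.00103) and -0.16 ± 0.05 in Adar-null cells (adjusted p = 0.00118), a difference of -0.33 ± 0.06 (adjusted p = 5.5e-06). The rise in control cells was 0.09 with library size alone and not called (adjusted p = 0.0955). Hnrnpd, which encodes a protein that binds AU-rich elements and directs mRNA decay, rose in control cells, from 70.7 ± 1.82 to 86.3 ± 3.21 CPM (0.29 ± 0.06, adjusted p = 5.53e-05), against 0.04 ± 0.07 in Adar-null cells (adjusted p = 0.616), a difference of -0.25 ± 0.09 (adjusted p = 0.0151).

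Hnrnpul2 and Hnrnpc had the reverse pattern, with lower levels in control cells given IFNb. Hnrnpul2 was counted at 131, 151 and 146 CPM in vehicle-treated control cells, 114, 109 and 114 CPM in IFNb-treated control cells, 140.1, 144 and 149 CPM in vehicle-treated Adar-null cells and 144, 144 and 135 CPM in IFNb-treated Adar-null cells. The IFNb-treated control libraries lay below all 9 others, which overlapped. Hnrnpul2, another relative of Hnrnpu, on GRCm38 chromosome 19 between 8820010 and 8834143, plus strand, gave -0.35 ± 0.05 in control cells (edgeR adjusted p = 6.56e-09), against -0.03 ± 0.05 in Adar-null cells (adjusted p = 0.552), and the difference was 0.31 ± 0.07 (adjusted p = 9.22e-05). A fall in Adar-null cells passed as well with library size alone (adjusted p = 0.0297). Hnrnpc, which encodes a protein that binds uridine tracts in nascent RNA, went from 127 ± 7.1 to 109 ± 5.45 CPM in control cells (-0.22 ± 0.05, adjusted p = 0.000227) and from 133 ± 2.39 to 129 ± 5.24 CPM in Adar-null cells (-0.04 ± 0.05, adjusted p = 0.481; 0.0264 with library size alone). Its difference, 0.18 ± 0.07 (adjusted p = 0.0302), was lost with the DESeq2 Wald test (adjusted p = 0.0784), library size alone (adjusted p = 0.0624) and without any 1 of 6 libraries, at adjusted p from 0.0663 to 0.142: replicates 1 and 2 of IFNb-treated Adar-null cells, replicate 2 of vehicle-treated Adar-null cells, replicates 1 and 2 of IFNb-treated control cells and replicate 1 of vehicle-treated control cells.

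The other hnRNP genes had small or uncertain changes. Hnrnpk, which encodes a protein with KH domains that binds cytidine tracts, was lower with IFNb, with -0.12 ± 0.05 in Adar-null cells (edgeR adjusted p = 0.0289). The call was lost with the DESeq2 Wald test (adjusted p = 0.0854), without IFNb-treated Adar-null replicate 3 (adjusted p = 0.114) and without vehicle-treated Adar-null replicate 1 (adjusted p = 0.053) or 2 (adjusted p = 0.0627). Hnrnph1 and Hnrnph2 were not called in either response. With library size alone Hnrnph1 was called lower in control cells (adjusted p = 0.0166) and in Adar-null cells (adjusted p = 0.0304), and Hnrnph2 gave 0.21 ± 0.10 in control cells (adjusted p = 0.0505), which passed in 11 alternatives, with RLE size factors at adjusted p = 0.0487. Hnrnpa1, which encodes a much-studied splicing repressor, was counted at 1.93, 1.65 and 3.07 CPM in vehicle-treated control cells, 1.07, 2.29 and 2.01 CPM in IFNb-treated control cells, 3.77, 3.73 and 2.14 CPM in vehicle-treated Adar-null cells and 2.65, 2.71 and 0.949 CPM in IFNb-treated Adar-null cells. These groups overlapped and no comparison was called, while a fall in Adar-null cells passed without the IFNb library of replicate 2 (adjusted p = 0.0405) or the vehicle library of replicate 3 (adjusted p = 0.0305). Its 37-base windows occur in 24 other annotated genes, 23 of them pseudogenes, for 47.9% of windows, so these low counts do not give its expression. Hnrnph3 had 32 to 74 counts per group and no call.

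In Adar-null cells both SF3 complexes held genes called in opposite directions. IFNb raised 2 and lowered 1 of the 5 SF3B genes in control cells, and raised 1 and lowered 2 in Adar-null cells. Of the 3 SF3A genes, 1 rose in each genotype and 1 fell in Adar-null cells. Calls over all genes were 26.5% each way in control cells, and 36.6% higher and 35.7% lower in Adar-null cells. Sf3b3, on GRCm38 chromosome 8 between 110810239 and 110846787, minus strand, encodes a large propeller protein of SF3B that is also found in a histone acetyltransferase complex. Sf3b3 was counted at 122, 119 and 115 CPM in vehicle-treated control cells, 197, 182 and 191 CPM in IFNb-treated control cells, 128, 133 and 129.6 CPM in vehicle-treated Adar-null cells and 187, 193 and 197 CPM in IFNb-treated Adar-null cells. The IFNb groups overlapped each other and lay above all vehicle libraries. It rose, with 0.68 ± 0.05 in control cells (edgeR adjusted p = 2.69e-24) and 0.56 ± 0.05 in Adar-null cells (adjusted p = 2.89e-20), with no called difference (-0.11 ± 0.07, adjusted p = 0.16), and its rise in control cells was the largest of any member.

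Sf3b5 encodes the smallest SF3B subunit, which contacts the products of Sf3b1 and Sf3b3. Sf3b5 was counted at 47.3, 45.8 and 45.5 CPM in vehicle-treated control cells, 35.4, 33.3 and 43.6 CPM in IFNb-treated control cells, 49.5, 53.6 and 48.8 CPM in vehicle-treated Adar-null cells and 20.5, 24.1 and 25.3 CPM in IFNb-treated Adar-null cells. IFNb-treated Adar-null libraries were lowest, and the IFNb-treated control libraries lay between them and the vehicle libraries. The response was -1.12 ± 0.10 in Adar-null cells (edgeR adjusted p = 6.07e-21) and -0.30 ± 0.09 in control cells (adjusted p = 0.00184; 0.0613 without the IFNb library of replicate 2), a difference of -0.81 ± 0.13 (adjusted p = 2.77e-08). Sf3b1, which encodes the subunit at the branch point and is recurrently mutated in uveal melanoma and blood cancers, gave 635, 659.9 and 673 CPM in vehicle-treated Adar-null cells and 533, 529 and 531 CPM with IFNb, without overlap. Its response there was -0.30 ± 0.04 (edgeR adjusted p = 9.52e-12), against -0.08 ± 0.04 in control cells (adjusted p = 0.0565), with a difference of -0.22 ± 0.05 (adjusted p = 0.000283). A fall in control cells passed in 5 alternatives, with library size alone at adjusted p = 0.000268.

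Sf3b4 rose in control cells (0.22 ± 0.09, edgeR adjusted p = 0.0326), a call lost in 7 alternatives besides the test against 1.5-fold, among them the DESeq2 Wald test (adjusted p = 0.0909), library size alone (adjusted p = 0.171), upper-quartile scaling (adjusted p = 0.0651) and the removal of replicate 2 or 3 of either control group (adjusted p from 0.0562 to 0.127). Of its windows 55.4% are shared with 2 other genes. Sf3b2 was not called in any comparison, and library size alone called it lower in control cells (adjusted p = 0.0147) and in Adar-null cells (adjusted p = 0.0237), and RLE size factors (adjusted p = 0.0427) and upper-quartile scaling (adjusted p = 0.0081) called it higher in Adar-null than in control cells under IFNb. In SF3A, Sf3a1, whose product contacts the U1 snRNP, rose from 200.2 ± 6.62 to 236 ± 8.02 CPM in control cells (0.24 ± 0.05, adjusted p = 1.21e-05). Its rise in Adar-null cells was 0.12 ± 0.05 (adjusted p = 0.0215) and ended with library size alone (adjusted p = 0.631), with only the 2 groups compared (adjusted p = 0.0542), without the IFNb library of replicate 2 (adjusted p = 0.063) or 3 (adjusted p = 0.146) and without the vehicle library of replicate 2 (adjusted p = 0.185). Sf3a3 went from 33.1 ± 0.952 to 26.4 ± 2.46 CPM in Adar-null cells (-0.33 ± 0.10, adjusted p = 0.00151), against 0.05 ± 0.09 in control cells (adjusted p = 0.65), and the responses differed by -0.39 ± 0.13 (adjusted p = 0.0093). Sf3a2 was not called in any comparison.

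Levels were compared between genes only per kilobase of merged exons, on the CPM per kb scale, in vehicle-treated control cells. Hnrnpab was highest at 282 ± 5.21 (SD, n = 3), followed by Hnrnpa0 at 131 ± 1.1, Srsf2 at 107 ± 5.27, Hnrnpa2b1 at 103 ± 4.59 and Srsf1 at 83.9 ± 4.73. Srsf2 and Hnrnpa2b1 are neighbours in this order whose values overlapped within their SDs. Hnrnpu had 66.3 ± 0.756, Sf3b1 58.3 ± 1.8 and Snrpb 54.4 ± 3.64 CPM per kb. Merged exons include those of all annotated transcripts of a gene. They span 6584 bases in Hnrnpa2b1, whose protein-coding transcripts hold 2528 distinct 37-base windows, and 2782 bases in Hnrnpab, with 2809 windows. The order can therefore change with the exons counted. Reads in windows shared with other genes can lower these levels, and such windows made up 26.9% for Hnrnpab, 33.3% for Srsf2, 1.16% for Srsf1 and 0% for Hnrnpa0, Hnrnpu and Sf3b1.

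Set side by side under IFNb, Adar-null cells had lower levels than control cells for 27 members and higher levels for 4, which are Srsf11, Hnrnpc, Hnrnph1 and Hnrnpul2. The share called was 67.4%, beside 72.6% of all genes (36.2% lower and 36.4% higher), the median of the members was -0.21 beside 0.02 for all genes, and 33 members had groups that did not overlap, where 74% of all genes had such groups. This comparison and the response of Adar-null cells share the IFNb-treated Adar-null libraries. The differences were -0.82 ± 0.05 for Srsf2 (edgeR adjusted p = 8.44e-34), -0.91 ± 0.09 for Srsf9, -0.74 ± 0.04 for Srsf1, -0.75 ± 0.04 for Hnrnpab, -1.35 ± 0.20 for Snrpd1, -1.07 ± 0.23 for Snrpd2 and -0.79 ± 0.10 for Snrpd3. The differences of the genes higher in Adar-null cells were 0.33 ± 0.05 for Hnrnpul2 (adjusted p = 1.01e-08), 0.25 ± 0.05 for Hnrnpc, 0.25 ± 0.06 for Srsf11 and 0.17 ± 0.05 for Hnrnph1 (adjusted p = 0.000875). Hnrnph2, Hnrnpr and Srsf4 were called lower here and lost that call in at least 1 alternative besides the test against 1.5-fold. That test kept only 8 of the 31 calls.

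Few of these genes were called between the genotypes before IFNb. With vehicle, 5 of the 46 members were called, or 10.9%, all higher in Adar-null cells (edgeR), beside 6.51% of all tested genes (2.47% higher and 4.05% lower). They were Hnrnpu (0.12 ± 0.04, edgeR adjusted p = 0.0392), Hnrnpa2b1 (0.14 ± 0.04, adjusted p = 0.0179), Hnrnpf (0.20 ± 0.06, adjusted p = 0.0373), Srsf7 (0.20 ± 0.06, adjusted p = 0.0246) and Snrpe (0.48 ± 0.15, adjusted p = 0.0253). None of these 5 calls held in every alternative. The count was 1 with the DESeq2 Wald test and 3 without a filter on low counts. It was 2, 0 and 2 without control vehicle replicate 1, 2 or 3, 0, 2 and 3 without Adar-null vehicle replicate 1, 2 or 3, and 8 without Adar-null IFNb replicate 1. The vehicle groups did not overlap for 15 of the 46 members, beside 22.3% of all genes. At an unadjusted p under 0.05, 14 members were higher and 0 lower. That count was not taken over all genes, so it shows nothing particular to the members. The median of the members was 0.06, beside -0.002 for all genes.

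The rest of the splicing machinery was counted in 9 lists outside the symbol rule. The LSm genes, which encode relatives of the Sm proteins in the U6, decay, U7 and other complexes, had 6 of 10 tested called lower and none higher in Adar-null cells (median -0.82), also with the DESeq2 Wald test. Leaving out IFNb-treated Adar-null replicate 3 gave 1 higher. Of all genes, 35.7% were called lower and 36.6% higher in Adar-null cells, and 26.5% each way in control cells. Lsm11, which encodes a part of the U7 particle that processes histone mRNA, went from 32.4 ± 1.23 to 11.7 ± 1.45 CPM (-1.46 ± 0.12, edgeR adjusted p = 4.77e-22). Of the factors that assemble and import Sm rings, 8 of 16 were higher and 2 lower by their calls in Adar-null cells (median 0.18). In control cells 9 were higher and 1 lower. These counts are with TMM scaling. Prmt5, the methyltransferase that prepares Sm proteins for assembly, rose from 50.4 ± 4.21 to 89.8 ± 2.57 CPM (0.83 ± 0.07, adjusted p = 5.73e-21), and Gemin6, a subunit of the SMN complex, fell (-0.58 ± 0.25, adjusted p = 0.0262), a call lost with the DESeq2 Wald test (adjusted p = 0.0731) and without IFNb-treated Adar-null replicate 1 (adjusted p = 0.0807) or 2 (adjusted p = 0.0669) or vehicle-treated Adar-null replicate 2 (adjusted p = 0.152). Gemin4 of the same complex rose in control cells (1.10 ± 0.07) with no call in Adar-null cells (-0.11 ± 0.08, adjusted p = 0.213; 0.0195 with library size alone and 0.0335 without IFNb-treated Adar-null replicate 3), so that under IFNb it was lower in Adar-null cells (-1.08 ± 0.07, adjusted p = 1.64e-28). Smn1 was higher there (0.54 ± 0.10, adjusted p = 9.62e-07). Both Prmt5 (0.45 ± 0.07) and Smn1 (0.51 ± 0.12) also rose with IFNb in control cells. The difference of the responses was called for Prmt5 (0.38 ± 0.10, edgeR adjusted p = 0.000815) and not for Smn1 (0.23 ± 0.16, adjusted p = 0.21).

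Among SR-related proteins and SR protein kinases, 13 of 22 rose and 5 fell in Adar-null cells, against 8 and 7 in control cells; of all genes 36.6% rose and 35.7% fell in Adar-null cells, and 26.5% did each in control cells. Clk4, a kinase that phosphorylates SR proteins, had 28.2 ± 2.58 CPM in vehicle-treated control cells, 29.9 ± 5.54 CPM in IFNb-treated control cells, 29.6 ± 0.875 CPM in vehicle-treated Adar-null cells and 97.7 ± 4.2 CPM in IFNb-treated Adar-null cells. It rose in Adar-null cells (1.72 ± 0.08, edgeR adjusted p = 6.73e-40) and gave 0.10 ± 0.10 in control cells (adjusted p = 0.413), while Rsrc1 fell in Adar-null cells (-0.75 ± 0.10, adjusted p = 4.73e-11). Other regulators and hnRNP-like genes were mostly lower, with 24 of 33 called lower and 6 higher in Adar-null cells (median -0.41) and 21 and 4 in control cells (median -0.19). Hnrpdl, a relative of Hnrnpd, rose in Adar-null cells (0.66 ± 0.07) and in control cells (0.53 ± 0.07), and Mbnl3, a muscleblind gene, fell in Adar-null cells (-1.25 ± 0.09) and rose in control cells (0.26 ± 0.07), where the call was lost without IFNb-treated control replicate 1 (adjusted p = 0.0525) or vehicle-treated control replicate 3 (adjusted p = 0.0522). Taf15, an RNA-binding protein of the FET family, went from 168 ± 7.33 to 55.5 ± 4.86 CPM in control cells (-1.60 ± 0.06) and from 201 ± 4.47 to 167 ± 10.0 CPM in Adar-null cells (-0.27 ± 0.05), a difference of 1.33 ± 0.08 (adjusted p = 4.29e-33).

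In the other lists calls in both directions were mixed, and all genes gave 36.6% higher and 35.7% lower in Adar-null cells, so counts near these shares show nothing about a list. More genes were called higher than lower in each with TMM scaling, but with library size alone this did not hold for U2AF, SF1 and branch-point factors (4 higher, 5 lower), U1 and tri-snRNP proteins (12 and 12) and the exon junction list (6 and 7). With TMM, calls were 7 higher and 4 lower of 15 for U2AF, SF1 and branch-point factors, led by Smndc1 (0.83 ± 0.08) and Phf5a (-0.44 ± 0.07), and 13 and 10 of 28 for U1 and tri-snRNP proteins, led by Prpf38b (1.03 ± 0.06) and Ppih (-1.41 ± 0.33). Phf5a is itself a subunit of SF3B under another name. The Prpf19 complex and catalytic factors had 12 higher and 5 lower of 26, led by Ppie (1.13 ± 0.15) and Ppil1 (-0.53 ± 0.09). The exon junction complex and nonsense-mediated decay list had 7 and 6 of 15, with Sap18 (-0.96 ± 0.18) the largest fall called. The minor spliceosome, which removes a small class of introns, had 5 and 2 of 10, led by Armc7 (2.34 ± 0.19, edgeR adjusted p = 3.81e-25) and Snrnp25 (-2.10 ± 0.25, adjusted p = 1.3e-13). Under IFNb, differences between genotypes in these lists were Smndc1 (1.19 ± 0.09), Prpf38b (1.12 ± 0.06), Prpf4 (-0.86 ± 0.07), Syf2 (0.92 ± 0.10) and Armc7 (1.69 ± 0.16).

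**Figure D4:**
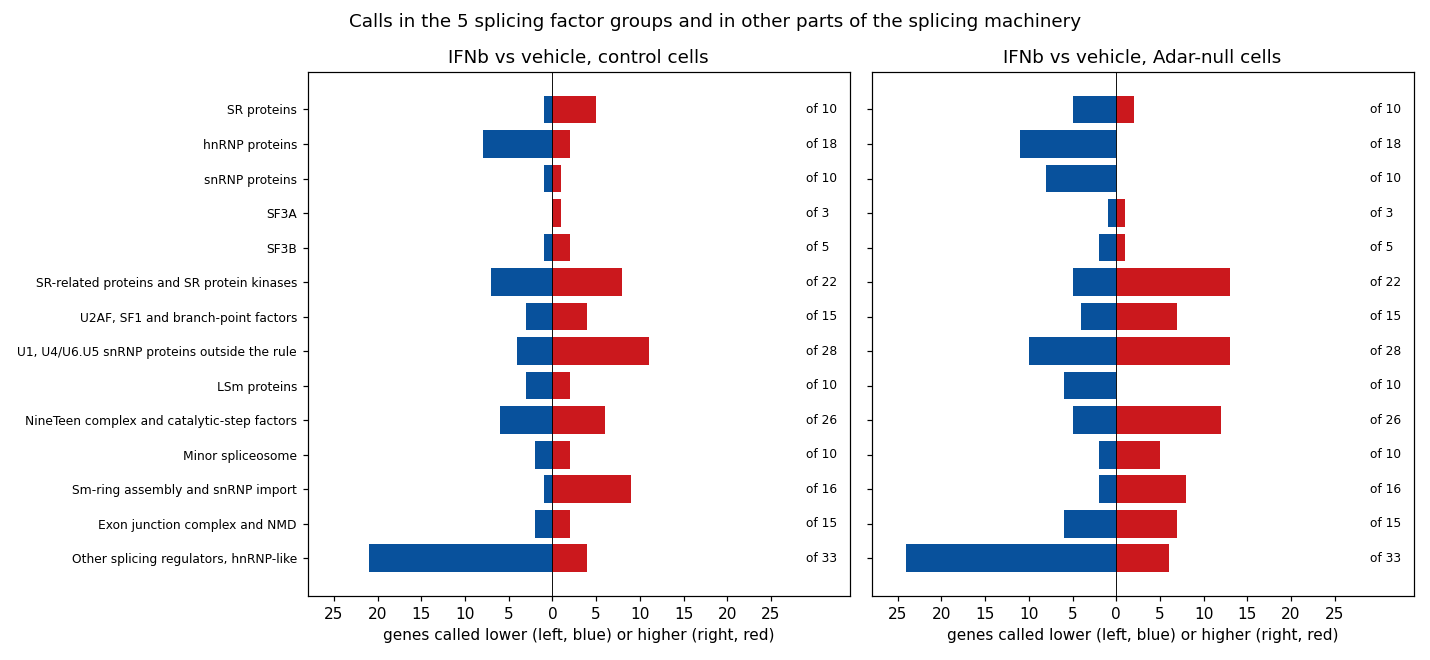
Number of genes called lower (left, blue) or higher (right, red) with IFNb in control cells and in Adar-null cells, for the 5 member families and 9 other lists of splicing genes; the number tested stands at the right. In Adar-null cells the snRNP genes (0 higher, 8 lower) and the LSm genes (0 higher, 6 lower) have no rises, while 13 of 22 SR-related and kinase genes are higher. Of all genes, 36.6% were called higher and 35.7% lower there.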

How the data were processed

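Per the labels' protocols, ribosomal RNA-depleted RNA was made into directional libraries and sequenced in pairs. The submitters' processing notes name HTSeq 0.6.1p1, Bowtie2 2.2.4, Trimmomatic 0.33, bcl2fastq 2.19.1, DESeq2 and the genome build mm10; settings, strand use and gene models were not given in the sources used here. Raw counts per gene symbol were deposited by the authors, whole numbers without normalisation, which give no isoforms. Reads shared by similar genes may be divided or dropped, so the share of 37-base exon windows found in other genes (GENCODE annotation of GRCm38) is given.

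Genes were filtered with filterByExpr by group and scaled by TMM, and the quasi-likelihood test of edgeR 4.0.16 (R 4.3.3) was fitted over all 12 libraries with 1 term per group. Adjustment (Benjamini-Hochberg) was over the 11561 genes within each of 5 comparisons. After ± stand Wald standard errors for log2 fold changes and SDs over 3 libraries for CPM. The code was tested on simulated data. Alternatives were other scalings and filters, DESeq2 1.42.0, limma 3.58.1 (voom), a test against 1.5-fold, fewer groups, a replicate block and leaving out each library.

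The members and lists were chosen with earlier results of these data known. Full values are given for a core of members and, per family and comparison, for the 2 largest rises and falls without overlap. Of each outside list, the called genes with the largest rise and fall in the Adar-null response and under IFNb are named; 1 result of this rule is not reported here. Promoters are from RefSeq (GRCm38.p6) and matched 44 of the 49 genes; windows were searched on both strands.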

Additional observations from a re-analysis of the deposited data

Results flagged for a closer look

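For 31 of the 46 tested members the response to IFNb differed between Adar-null and control cells in the test of that difference itself (the interaction term, edgeR's quasi-likelihood test, adjusted p under 0.05). The values below are log2 differences, the Adar-null response minus the control response. Among genes of the snRNPs they were -1.33 for Snrpg, -1.20 for Snrpd1, -1.18 for Snrpe, -1.17 for Snrpd2, -0.83 for Snrpd3, -0.46 for Snrpa1 and -0.45 for Snrpb. SR protein genes gave -0.92 for Srsf9, -0.88 for Srsf2, -0.78 for Srsf1, -0.47 for Srsf4, -0.40 for Srsf7, -0.32 for Srsf6 and -0.29 for Srsf5, all lower in Adar-null cells, and 0.27 for Srsf11. The hnRNP genes with a lower response gave -0.81 for Hnrnpab, -0.66 for Hnrnpa3, -0.43 for Hnrnpu, -0.41 for Hnrnpa0, -0.37 for Hnrnpa2b1, -0.33 for Hnrnpl, -0.31 for Hnrnpf, -0.27 for Hnrnpr, -0.25 for Hnrnpd, -0.19 for Hnrnpm and -0.16 for Hnrnpul1, and those with a higher response 0.31 for Hnrnpul2 and 0.18 for Hnrnpc. In SF3A and SF3B they were -0.81 for Sf3b5, -0.39 for Sf3a3 and -0.22 for Sf3b1. Of these 31 differences, 26 passed in every alternative except the test against 1.5-fold, and 9 passed that test too: Hnrnpab, Sf3b5, Snrpd1, Snrpd2, Snrpd3, Snrpe, Srsf1, Srsf2 and Srsf9. Those of Hnrnpc, Hnrnpr, Hnrnpul1, Srsf5 and Srsf11 were lost in at least 1 other alternative. Of all tested genes, 59.3% were called in this comparison, and 2592 of 11561 passed the test against 1.5-fold.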

How the results depend on the processing

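No call of a member or of a gene named from the other lists reversed in any alternative; for those lists the alternatives were chosen after seeing the data. Of member values, 4962 kept their side of the threshold, 200 lost a call and 82 gained one. Under the test against 1.5-fold the numbers of members called were 0 higher for vehicle, 0 higher and 1 lower for IFNb in control cells, 0 and 13 for IFNb in Adar-null cells, 0 and 8 for genotype under IFNb, and 0 and 9 for the difference of the responses. Of all 11561 genes, that test called 0 higher and 17 lower for vehicle, 577 and 403 in control cells, and 1517 and 1784 in Adar-null cells. For all genes, genotype under IFNb gave 1435 and 1871, and the difference 1038 and 1554. Library size alone put the median log2 fold change of all genes at -0.08 in both genotypes. Members called with it were 7 higher and 19 lower in control cells and 2 higher and 33 lower in Adar-null cells. Of all genes, it called 2469 higher and 3796 lower in control cells, and 3618 and 4672 in Adar-null cells. The vehicle count of 5 became 3 without a filter on low counts and 1 with the DESeq2 Wald test. Leaving out 1 library gave 0 to 8 higher for vehicle, 9 to 12 higher and 8 to 13 lower in control cells, 3 to 4 and 25 to 28 in Adar-null cells, 4 and 25 to 27 for genotype under IFNb, and 2 to 3 and 25 to 30 for the difference. No member was lower under vehicle in any alternative. No pairing by replicate number was seen. Same-numbered libraries correlated at -0.1 to 0.06 in their deviations from group means (0 of 18 pairs over 0.1), and 2 of 12 correlated best with their own number. Such values cannot exclude a weak factor shared by same-numbered libraries, and the labels state no block. With the replicate block the counts were 5 higher for vehicle, 12 and 11 in control cells, 4 and 27 in Adar-null cells, 4 and 27 under IFNb and 3 and 28 for the difference; Hnrnpu lost its vehicle call (adjusted p = 0.0592), while Hnrnpul1 under vehicle (adjusted p = 0.0498) and Hnrnph2 in control cells (adjusted p = 0.0494) gained one. Fitting only the groups compared was not run for the difference, which needs all groups. Depth limits thinly counted members, with 24 counts of Snrpg, 38 of Hnrnpa1, 50 of Hnrnph3 and 69 of Snrpd2 in the 3 Adar-null libraries with IFNb.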
